A study of Mus musculus with 7 samples.

Results

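The collagen genes of the mouse were examined in 3T3-L1 cells, an established line of fibroblast-like mouse cells that turn into fat cells when given a hormone mixture. Members were chosen by symbol alone, as genes named Col, a type number, the letter a and a chain number, and each was read from the array row with the highest mean over all arrays. This gave 42 collagen genes of 18820 genes in the table: 11 chains of fibrillar collagens, 6 chains of type IV, the collagen of basement membranes, and 25 chains of other types. A mixture of dexamethasone, isobutylmethylxanthine and human insulin induced the cultures over 2 days, after which insulin alone maintained them. From start to end they received either an SCD inhibitor bought commercially, at 1 µM, or a matching volume of DMSO. SCD, stearoyl-CoA desaturase, is the enzyme that makes monounsaturated fatty acids. RNA was taken on day 7, and 4 DMSO and 3 SCD inhibitor samples were hybridised, 1 array each. The sources used here do not name the compound, and 3T3-L1 is a single line in culture. Whether replicates came from separate cultures is not stated, so each p-value reflects the spread among these 7 samples alone, and that spread may be technical. The labels call the cells pre-adipocytes. Of 12 fat cell markers 11 lay above the median level of all genes, among them Adipoq at 12.39 (log2) in DMSO and 12.44 with the inhibitor, and Lep, at 4.83 in both groups, lay below it.

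Collagens are trimers of long chains wound around each other. Fibrillar types form the tough fibres of connective tissue, type IV forms the sheet-like network of basement membranes, and most other types sit on fibres, form filaments or span the cell membrane. Undifferentiated fat cell precursors are surrounded mainly by fibrillar collagens, and as fat cells mature each cell wraps itself in a basement membrane rich in types IV and VI.

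With the SCD inhibitor, 9 of the 42 collagen genes rose and none fell. Across the array 3.62% of all genes rose by the same rule (an adjusted p under 0.05 in limma) and 4.37% fell. At an unadjusted p under 0.05 in limma 13 members were higher and 2 lower, against 10.9% of all genes higher (2052 of 18820) and 11% lower (2076 of 18820). The 9 were the fibrillar chains Col1a1, Col1a2, Col3a1, Col5a2, Col5a3 and Col11a1, the basement membrane chains Col4a1 and Col4a2, and Col15a1. The increases were modest, from 1.12-fold for Col4a2 to 1.41-fold for Col3a1. In cultures like these, more cells of a type and more RNA per cell cannot be told apart. The count was 5 without DMSO 4, 6 without DMSO 3 or any 1 inhibitor array, and 3 without both arrays numbered 1, always with no member lower. In the fits without 1 array or without both arrays numbered 1, 1.96% to 3.78% of all genes rose.

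By class, 6 of 11 fibrillar chains rose, 2 of 6 type IV chains and 1 of 25 other chains. The last share, 4%, was near the 3.62% of all genes that rose. The median log2 difference was 0.17 over all fibrillar chains, 0.013 over the type IV chains and 0.025 over the other types, against -0.0037 over all genes. Of all 42 members 28 had a difference above 0 (66.7%), compared with 46.8% of all genes, where a difference under 1e-06 was taken as 0. All 9 that rose lay above the median level of all genes, as did 24 members in total. Of the genes above that level 6.76% rose. Among those 24 members the medians were 0.21 for 10 fibrillar chains, 0.16 for 3 type IV chains and 0.083 for 11 other chains. The difference between classes was described by these counts and medians and was not tested.

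**Figure D1:**
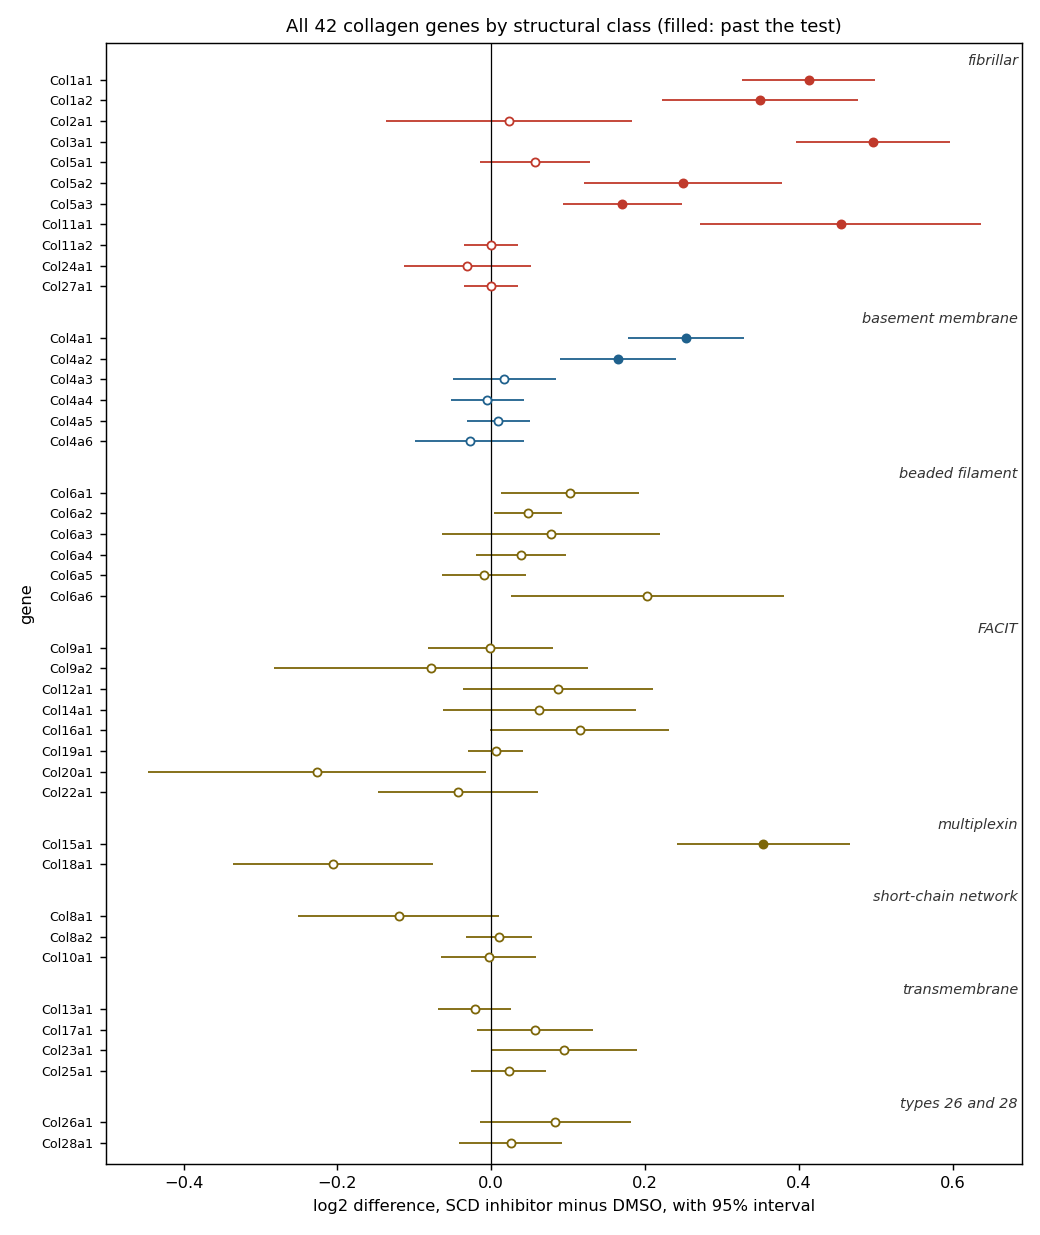
Log2 difference (SCD inhibitor minus DMSO, horizontal axis) of each of the 42 collagen genes, grouped by structural class, with its 95% interval from limma; filled points passed an adjusted p of 0.05. The 9 filled points all lie right of 0, 6 of them among the fibrillar chains.

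In the genome, collagen genes often lie side by side. By RefSeq (GRCm38.p6), 8 pairs of members are neighbouring protein-coding genes. In 2 of these pairs both genes rose, Col3a1 with Col5a2 and Col4a1 with Col4a2, and in the other 6 neither passed. Of the 7 fits that left out 1 array, Col5a2 lost its call in 6 and Col4a2 in 5. The share over all neighbouring genes was not computed, so these counts do not show whether neighbours moved together. Col4a1 and Col4a2 are read in opposite directions from a shared control region. Their annotated first bases lie so close that the stretch from one to the other, chr8:11312805-11312826 on the plus strand, is only 22 bases long. Col4a2 starts at 11312805 on the plus strand and Col4a1 at 11312826 on the minus strand. The stretch therefore lies past the annotated start of both genes, not between them. It is shown here because both genes rose, with a GC-rich box (GGGCGG) in capitals:
Col4a1-Col4a2 start stretch: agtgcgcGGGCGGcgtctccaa

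The bases just before the start of fibrillar genes that rose are shown next, since these genes moved in the same direction and their promoters can be compared by eye. Of the 42 members 34 matched the RefSeq promoter table (GRCm38.p6), among them 7 of the 9 that rose. The fibrillar genes Col1a1 and Col5a2 had no match there and are not shown. The 250 bases before the start were searched on both strands for the CCAAT box, for the TATAAA box and for the GC box GGGCGG, none of which overlap in the windows shown, and matches (on the other strand as their reverse complement) are in capitals. Col1a2 (chr6:4505368-4505617, plus strand), Col3a1 (chr1:45311288-45311537, plus strand), Col5a3 (chr9:20815068-20815317, minus strand) and Col11a1 (chr3:114030290-114030539, plus strand) read as follows:
Col1a2: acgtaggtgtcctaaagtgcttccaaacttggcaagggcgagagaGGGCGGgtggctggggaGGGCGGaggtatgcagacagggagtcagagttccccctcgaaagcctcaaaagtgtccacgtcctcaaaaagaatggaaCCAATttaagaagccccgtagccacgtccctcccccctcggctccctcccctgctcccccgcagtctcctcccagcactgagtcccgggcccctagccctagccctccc
Col3a1: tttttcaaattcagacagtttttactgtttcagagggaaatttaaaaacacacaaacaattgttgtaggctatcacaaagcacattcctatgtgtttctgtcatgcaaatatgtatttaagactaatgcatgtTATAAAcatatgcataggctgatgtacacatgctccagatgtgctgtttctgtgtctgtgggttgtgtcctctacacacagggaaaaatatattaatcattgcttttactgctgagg
Col5a3: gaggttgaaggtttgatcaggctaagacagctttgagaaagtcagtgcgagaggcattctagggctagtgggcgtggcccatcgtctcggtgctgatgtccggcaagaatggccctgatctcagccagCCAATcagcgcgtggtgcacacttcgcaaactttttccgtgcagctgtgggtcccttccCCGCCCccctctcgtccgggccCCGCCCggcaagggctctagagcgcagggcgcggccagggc
Col11a1: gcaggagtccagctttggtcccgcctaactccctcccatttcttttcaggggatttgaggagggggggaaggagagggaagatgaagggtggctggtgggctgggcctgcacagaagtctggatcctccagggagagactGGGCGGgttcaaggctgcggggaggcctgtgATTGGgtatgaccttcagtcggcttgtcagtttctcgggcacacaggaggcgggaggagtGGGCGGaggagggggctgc

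CCAAT was found in 5 of the 7 genes that rose and had a window, in 12 of all 34 members and in 33.8% of the 32851 windows of the table. In Col1a2 its first base lies 109 bases before the annotated start, in Col5a3 122 bases before it, and in Col11a1 79 bases before it with the letters on the other strand. The windows of Col4a1 and Col4a2, which also held CCAAT, each lie past the annotated start of the other gene. GGGCGG was found in 4 of the 7, in 20 of the 34 members and in 32.7% of all windows. Col1a2, Col5a3 and Col11a1 each held 2 copies. TATAAA was found in 1 of the 7, in 5 of the 34 and in 12.4% of all windows. That 1 was Col3a1, 117 bases before its start and with neither of the other motifs, while the window of Col15a1 held none of the 3 motifs. These matches describe letters and are not shown to be sites of any factor.

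Type I collagen, the main fibre of skin, bone and tendon, is built from the chains of Col1a1 and Col1a2, and both rose. Col1a1 read 10.08, 9.96, 9.96 and 10.03 (log2 level) on the DMSO arrays and 10.39, 10.46 and 10.41 on the inhibitor arrays. Every inhibitor array lay above every DMSO array, with a gap between the groups wider than the spread within either. The difference was 0.41 on the log2 scale (SE 0.036, 1.33-fold, adjusted p = 0.00112 in limma). Col1a2 read 10.57, 10.46, 10.38 and 10.48 in DMSO and 10.77, 10.91 and 10.78 with the inhibitor, also without overlap. Its difference was 0.35 (SE 0.053, 1.27-fold, adjusted p = 0.0105 in limma). Over all genes, 8.30% had all inhibitor values above all DMSO values.

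Col3a1, whose chain forms type III collagen and runs in the same fibres as type I in soft tissues, had the largest increase of all members. Its levels were 10.25, 10.22, 10.13 and 10.23 in DMSO against 10.69, 10.78 and 10.65 with the inhibitor. The groups were far apart, with a log2 difference of 0.50 (SE 0.042, 1.41-fold, adjusted p = 9.87e-04 in limma). Col1a1 and Col3a1 passed in every fit that was run, and they were the only 2 of the 9 to do so. Their adjusted p in limma reached at most 0.0392 and 0.0295 over the 17 alternatives.

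Types V and XI are minor fibrillar collagens that lie inside type I fibres and help set their width. Col11a1 read 6.05, 6.27, 6.17 and 6.20 in DMSO and 6.55, 6.79 and 6.54 with the inhibitor, a difference of 0.45 (SE 0.076, 1.37-fold, adjusted p = 0.015 in limma). SCD inhibitor 2 was the highest array, and the groups did not overlap. The adjusted p was 0.0552 without DMSO 3, 0.0514 without DMSO 4 and 0.0878 without both arrays numbered 1. Col5a2 read 7.41, 7.59, 7.48 and 7.50 against 7.69, 7.85 and 7.70. DMSO 2 was the highest control and lay closest to the inhibitor arrays, without overlap, and the difference was 0.25 (SE 0.054, 1.19-fold, adjusted p = 0.039 in limma). Col5a3 read 7.21, 7.20, 7.27 and 7.19 against 7.36, 7.35 and 7.45, a difference of 0.17 (SE 0.033, 1.13-fold, adjusted p = 0.0251 in limma). Both calls were near the threshold. Col5a2 held its call only without DMSO 2 (adjusted p from 0.0677 to 0.115 in the other 6 fits that left out 1 array, and 0.0535 with every array row tested), and Col5a3 only without DMSO 3 (0.0523 to 0.0781 in the other 6). Col5a1, the chain present in most type V trimers, read 7.70 to 7.79 in DMSO and 7.79 to 7.86 with the inhibitor and did not pass (log2 0.06, 95% interval -0.01 to 0.13).

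The remaining fibrillar chains did not pass. Col2a1, the collagen of cartilage, had a difference of 0.02 (SE 0.067), with values from 6.12 to 6.42 on the inhibitor arrays that spanned the DMSO range of 6.20 to 6.26. Col11a2 (log2 -0.00073, SE 0.015) and Col24a1 (-0.03, SE 0.034) showed differences close to 0. Col27a1 had the same deposited value, 6.13, on all 7 arrays. Such repeated values were common in this group of genes: 12 of the 42 members had at most 3 distinct values over the 7 arrays (28.6%), against 12.7% of all genes. For these members the data give little resolution, and a small difference cannot be read from them.

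**Figure D2:**
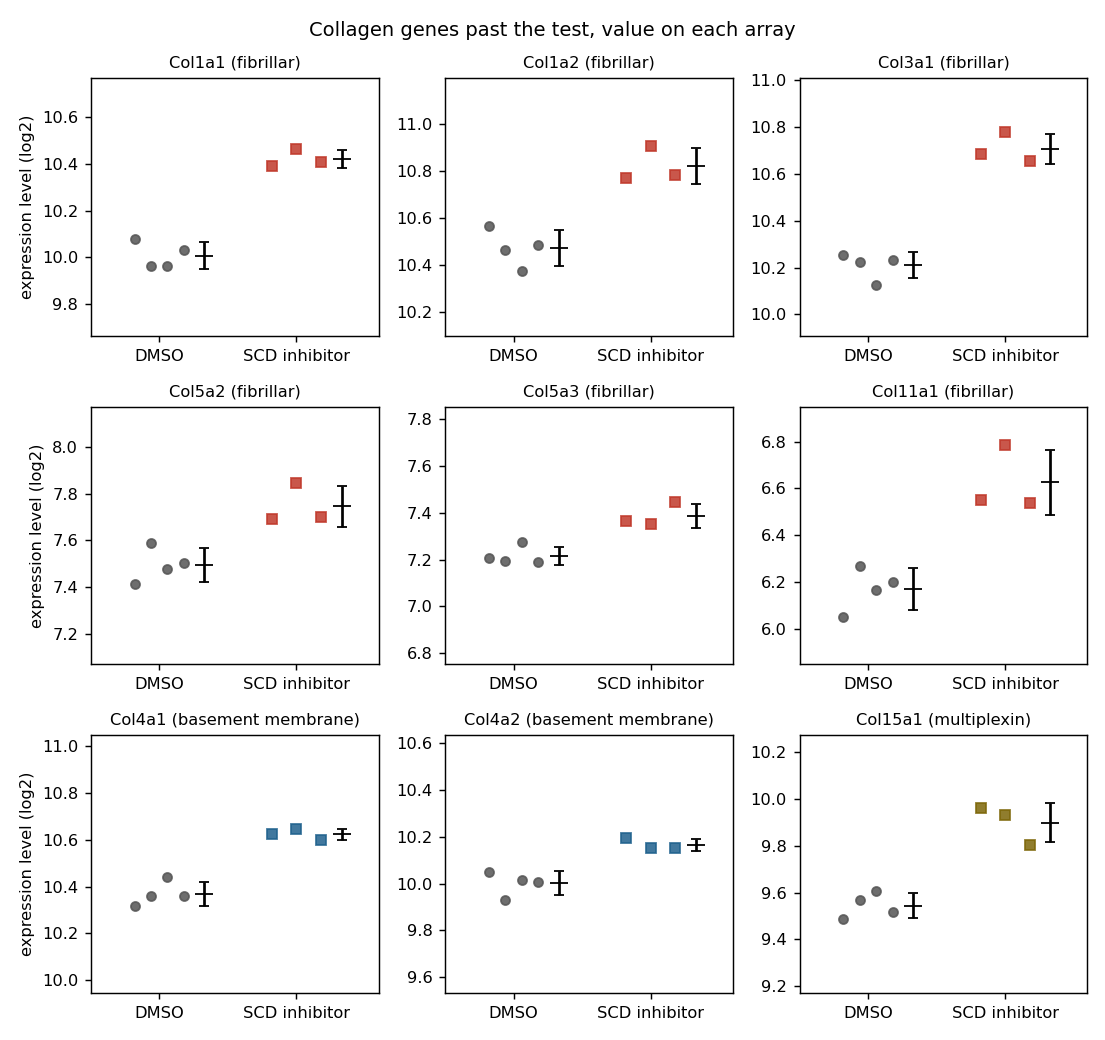
Expression level (log2, vertical axis, the same span in every panel) on each DMSO array (circles) and each SCD inhibitor array (squares) for the 9 collagen genes that passed the test; the bar beside each group is its mean with 1 SD. In every panel the lowest inhibitor array lies above the highest DMSO array, as in 8.30% of all genes. The panels were chosen by a test on these same values, so this is no separate evidence.

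In the basement membrane class only the chains of the common type IV trimer rose. Col4a1 read 10.32, 10.36, 10.44 and 10.36 in DMSO and 10.62, 10.64 and 10.60 with the inhibitor. The inhibitor arrays were tightly grouped (SD 0.024, n = 3) above all DMSO arrays, at a difference of 0.25 (SE 0.032, 1.19-fold, adjusted p = 0.00491 in limma). The adjusted p was 0.0537 without both arrays numbered 1. Col4a2 read 10.05, 9.93, 10.02 and 10.01 against 10.20, 10.15 and 10.15, a difference of 0.16 (SE 0.032, 1.12-fold, adjusted p = 0.026 in limma). This call held without DMSO 1 or DMSO 2 and ended without any other array (adjusted p from 0.0674 to 0.0782). The minor chains Col4a3, Col4a4, Col4a5 and Col4a6, which build the basement membranes of kidney and a few other tissues, had differences between -0.03 and 0.02, and none passed. Of these 4 only Col4a5, at 7.06 in DMSO and 7.07 with the inhibitor, lay above the median level of all genes.

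Of the 25 other chains 1 rose (4%), near the share of all genes (3.62%), and this 1 was Col15a1. It encodes type XV collagen, which lies at the outer face of basement membranes and belongs with type XVIII to the multiplexins. Its levels were 9.49, 9.57, 9.61 and 9.52 in DMSO and 9.96, 9.93 and 9.80 with the inhibitor. The groups did not overlap, and the difference was 0.35 (SE 0.047, 1.28-fold, adjusted p = 0.00622 in limma, 0.0702 without both arrays numbered 1). Its relative Col18a1, whose protein releases endostatin, read 8.29, 8.17, 8.22 and 8.23 in DMSO and 8.07, 8.10 and 7.90 with the inhibitor. All inhibitor values were below all DMSO values, as in 9.02% of all genes, but the difference of -0.21 (SE 0.054) did not pass over all genes (adjusted p = 0.0761 in limma). It did pass when the dimmest 50% of genes were dropped (adjusted p = 0.0324 in limma). In that setting 1037 of the 9410 genes kept fell, a larger share than the 4.37% with all genes. Counting types XV and XVIII with type IV gives 3 of 8 chains that rose.

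Type VI collagen, a beaded filament abundant around fat cells, did not pass for any of its 6 chains. Col6a1 read 11.28, 11.25, 11.27 and 11.26 in DMSO and 11.30, 11.34 and 11.46 with the inhibitor, and Col6a2 had values of 11.27 to 11.30 against 11.31 to 11.35. In both the inhibitor values lay above all DMSO values, but the differences were small, 0.10 (SE 0.038, adjusted p = 0.176 in limma) and 0.05 (SE 0.019, adjusted p = 0.197). Col6a3 overlapped, with 11.19 on DMSO 1 and 11.37 to 11.43 on the other DMSO arrays, against 11.43 to 11.45. These 3 chains read near the upper end of the scale, with mean levels up to 11.39. Among all genes, changes over 0.5 in either direction passed up to a mean level of 11.88. Whether the upper end of the scale limited the type VI differences was not tested. Col6a6 had a difference of 0.20 (SE 0.074, adjusted p = 0.176), with overlapping groups.

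Of the 8 chains of types that attach to the surface of fibres (FACIT collagens), 4 had a difference above 0 and none passed in limma. At an unadjusted p under 0.05, 1 of the 8 was lower and none higher, a share near the 11% of all genes that were lower by that rule. That chain, Col20a1, read 7.22, 7.44, 7.22 and 7.45 in DMSO and 7.20, 7.18 and 6.93 with the inhibitor (log2 -0.23, SE 0.092, adjusted p = 0.215). Col12a1 (log2 0.09, SE 0.052) and Col14a1 (0.06, SE 0.053), which coat type I fibres, did not pass. Over all members that did not pass, the differences ran from -0.23 for Col20a1 to 0.20 for Col6a6. Transmembrane collagens (4 chains), short-chain network collagens (3 chains) and types XXVI and XXVIII (2 chains) gave no call either. Among these chains only Col23a1 reached an unadjusted p under 0.05, with a log2 difference of 0.09 (SE 0.039, adjusted p = 0.227 in limma).

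**Figure D3:**
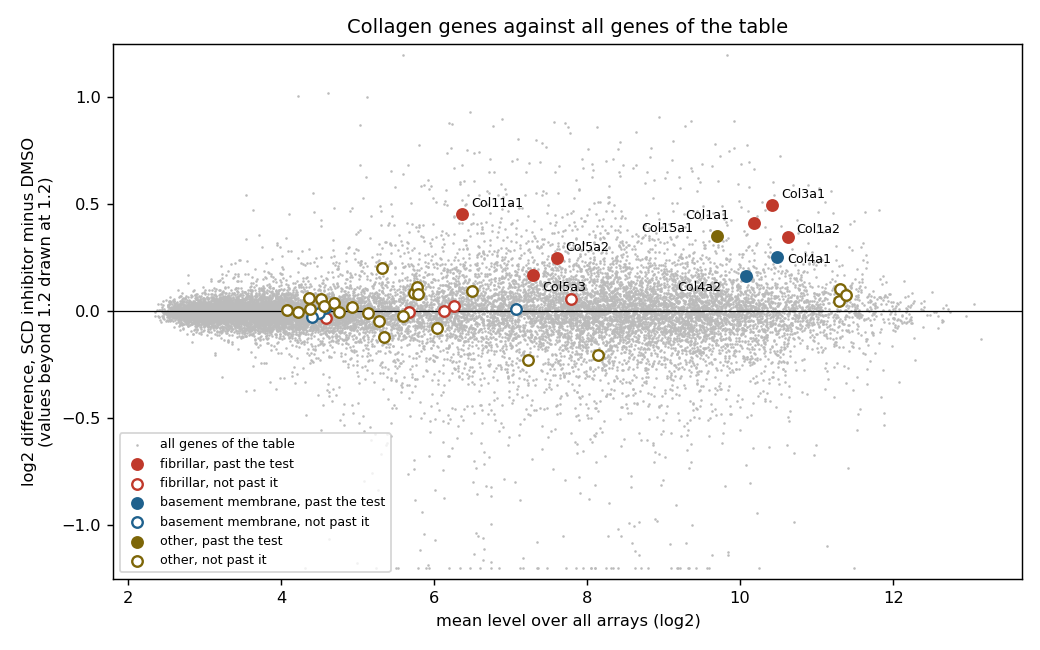
Log2 difference (SCD inhibitor minus DMSO, vertical axis, values beyond 1.2 drawn at 1.2) against the mean level over all 7 arrays (log2, horizontal axis) for all 18820 genes (grey) and the 42 collagen genes by class. The 9 members past the test (filled) lie between 0.16 and 0.50 on the vertical axis, while most members of other types lie near 0.

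Chains that share a trimer or a fibre were then set against each other within each array, as the change in their log2 gap from DMSO to inhibitor. A set of 7 such gaps was computed. Col5a2 gained 0.19 on Col5a1, with gaps that did not overlap between the groups (exact permutation test over the 7 arrays, two-sided, p = 0.0286, the smallest that 35 arrangements allow, and 0.2 after adjustment over the 7 gaps). Col5a3 gained 0.11 on Col5a1 (exact p = 0.0857). Col1a1 gained 0.06 on Col1a2 (exact p = 0.114), Col3a1 gained 0.08 on Col1a1 (exact p = 0.0857) and Col4a1 gained 0.09 on Col4a2 (exact p = 0.171). No gap passed after adjustment, but with 7 arrays a single gap at the smallest possible p adjusts to 0.2, so this test says nothing on whether paired chains changed alike. For type VI the gap moved by 0.05 for Col6a1 against Col6a2 and by -0.03 for Col6a3 against Col6a1.

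The inhibitor arrays were not equal for the 9 members that rose. SCD inhibitor 2 held the highest inhibitor value in 6 of them (Col1a1, Col1a2, Col3a1, Col5a2, Col11a1 and Col4a1), and SCD inhibitor 3 the lowest in 5. Among the DMSO arrays the highest value fell on DMSO 1 in 4 of the 9, on DMSO 3 in 3 and on DMSO 2 in 2. The median over all 42 members, relative to the DMSO mean of each gene, was 0.017, 0.053 and 0.032 on the 3 inhibitor arrays and between -0.0011 and 0.0029 on the DMSO arrays. The DMSO arrays themselves make up that mean, so their medians are held near 0 and do not measure the spread among arrays.

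A collagen chain is hydroxylated and folded in the endoplasmic reticulum, exported, trimmed of its end pieces outside the cell, crosslinked into fibres and later broken down. In a list of 72 genes of these steps, of collagen receptors and of partners in the matrix, 66 were measured. Of these 10 rose (15.2%) and 3 fell, against 3.62% and 4.37% of all genes. All 10 lay above the median level of all genes, as did 48 of the 66, and of the genes above that level 6.76% rose. The number that fell was near the share of all genes. The median log2 difference of the list was 0.022. Without 1 array the number that rose ran from 5 (without DMSO 3 or SCD inhibitor 2) to 11 (without DMSO 1). It was 15 with the arrays centred on their medians, a setting in which 6.89% of all genes rose in place of 3.62%.

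Of 17 measured genes of hydroxylation and folding 1 rose (5.88%) and 2 fell, against 3.62% and 4.37% of all genes. Plod1, a lysyl hydroxylase, fell from 10.95 ± 0.039 (SD, n = 4) to 10.79 ± 0.015 (SD, n = 3), a difference of -0.16 (adjusted p = 0.0117 in limma). P4ha2, a catalytic subunit of prolyl 4-hydroxylase, fell by 0.27 (SE 0.054, adjusted p = 0.0288), and that call ended in 5 of the 7 fits without 1 array, all but those without DMSO 3 or SCD inhibitor 2 (highest adjusted p 0.0914). Colgalt1, which adds galactose to hydroxylysine, rose by 0.30 (SE 0.052, adjusted p = 0.0177). Its call held without DMSO 1 or DMSO 2 and ended without any other array (up to 0.0684), and the mean over its array rows gave only 0.11 (adjusted p = 0.15). The main prolyl 4-hydroxylase subunits P4ha1 (log2 -0.14, adjusted p = 0.0928) and P4hb (0.12, adjusted p = 0.101) did not pass. P4ha1 passed without SCD inhibitor 1 (adjusted p = 0.0397) and with centred arrays, and P4hb without DMSO 1 (0.0488), without both arrays numbered 1 and with array weights. Serpinh1, the collagen-specific chaperone HSP47, had a difference of 0.07 (SE 0.030), and Plod2 one of 0.20 (SE 0.088), neither past the test. Of 7 export genes none passed in limma, and at an unadjusted p under 0.05, 1 was higher and 1 lower, shares near those of all genes by that rule (10.9% higher, 11% lower).

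Outside the cell, 2 of 7 measured genes of propeptide removal rose and none fell, against 3.62% and 4.37% of all genes. The 2 were Bmp1 and Pcolce, and the other 5 did not pass. Bmp1, the protease that cuts fibrillar procollagens, rose from 9.36 ± 0.050 (SD, n = 4) to 9.73 ± 0.090 (SD, n = 3), by 0.38 (SE 0.048, adjusted p = 0.00512 in limma). Pcolce, which speeds that cut, read 10.82 ± 0.046 against 11.29 ± 0.059 and rose by 0.47 (SE 0.037, adjusted p = 7.51e-04). Of 4 measured lysyl oxidases, which crosslink collagen, 1 rose and none fell, against the same shares of all genes. This was Loxl1, which rose by 0.40 (SE 0.067, adjusted p = 0.0151 in limma). Dropping DMSO 2, DMSO 3, DMSO 4 or SCD inhibitor 2 ended its call (adjusted p from 0.0511 to 0.0636). Lox had a difference of 0.25 and did not pass (adjusted p = 0.0903 in limma) except without SCD inhibitor 3 (0.0381), after a further quantile normalization (0.0412), with centred arrays (0.0332) and with the dimmest 50% of genes dropped (0.036). In the last setting 10.1% of the genes kept rose.

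Of 9 breakdown genes 3 rose and none fell, against 3.62% and 4.37% of all genes. Mmp14, the membrane-bound protease that cuts fibrillar collagen at the cell surface, rose by 0.78 (SE 0.045, 1.72-fold). Mmp2, a gelatinase that Mmp14 activates, rose from 10.79 ± 0.072 (SD, n = 4) to 11.36 ± 0.039 (SD, n = 3), by 0.58 (SE 0.043, adjusted p = 5.63e-04 in limma). Ctsk, the collagen-cutting protease cathepsin K, rose by 0.75 (SE 0.14, adjusted p = 0.0213), with a wide spread in DMSO (SD 0.27, n = 4). The Ctsk call held without DMSO 1 or DMSO 2 and ended without any other array (adjusted p from 0.05 to 0.0872). Mrc2, the receptor that takes up collagen fragments, had a difference of 0.08 and did not pass.

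Of 8 receptor genes 1 rose, against 3.62% of all genes. This was Itgb1, the shared beta chain of collagen-binding integrins, which rose by 0.24 (SE 0.051, adjusted p = 0.037 in limma). It held that call in only 1 of the 7 fits without 1 array, that without DMSO 1 (highest adjusted p 0.131). Ddr2, a receptor tyrosine kinase for fibrillar collagen, had a difference of 0.17 (SE 0.055) that did not pass except with centred arrays (adjusted p = 0.0313), and Itga11 one of 0.03. Of 8 fibril partners 2 rose and 1 fell, against 3.62% and 4.37% of all genes. Decorin (Dcn), a proteoglycan that binds along fibres, rose by 0.59 (SE 0.059, 1.51-fold, adjusted p = 0.00201; 0.0519 without both arrays numbered 1). Lumican (Lum), of the same family, rose by 0.56 (SE 0.12, adjusted p = 0.0343), and this held only without DMSO 1 or DMSO 4 among the fits that left out 1 array (highest adjusted p 0.127). Fibronectin (Fn1), on which collagen fibres are laid down, fell by 0.26 (SE 0.037, adjusted p = 0.00839; 0.0807 without both arrays numbered 1). None of 6 partners in the basement membrane passed in limma, with 2 higher and none lower at an unadjusted p under 0.05 (10.9% and 11% of all genes). Among them Nid1 (log2 0.11) and Hspg2 (0.16), which tie type IV collagen to laminin, had adjusted p of 0.1 and 0.163.

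**Figure D4:**
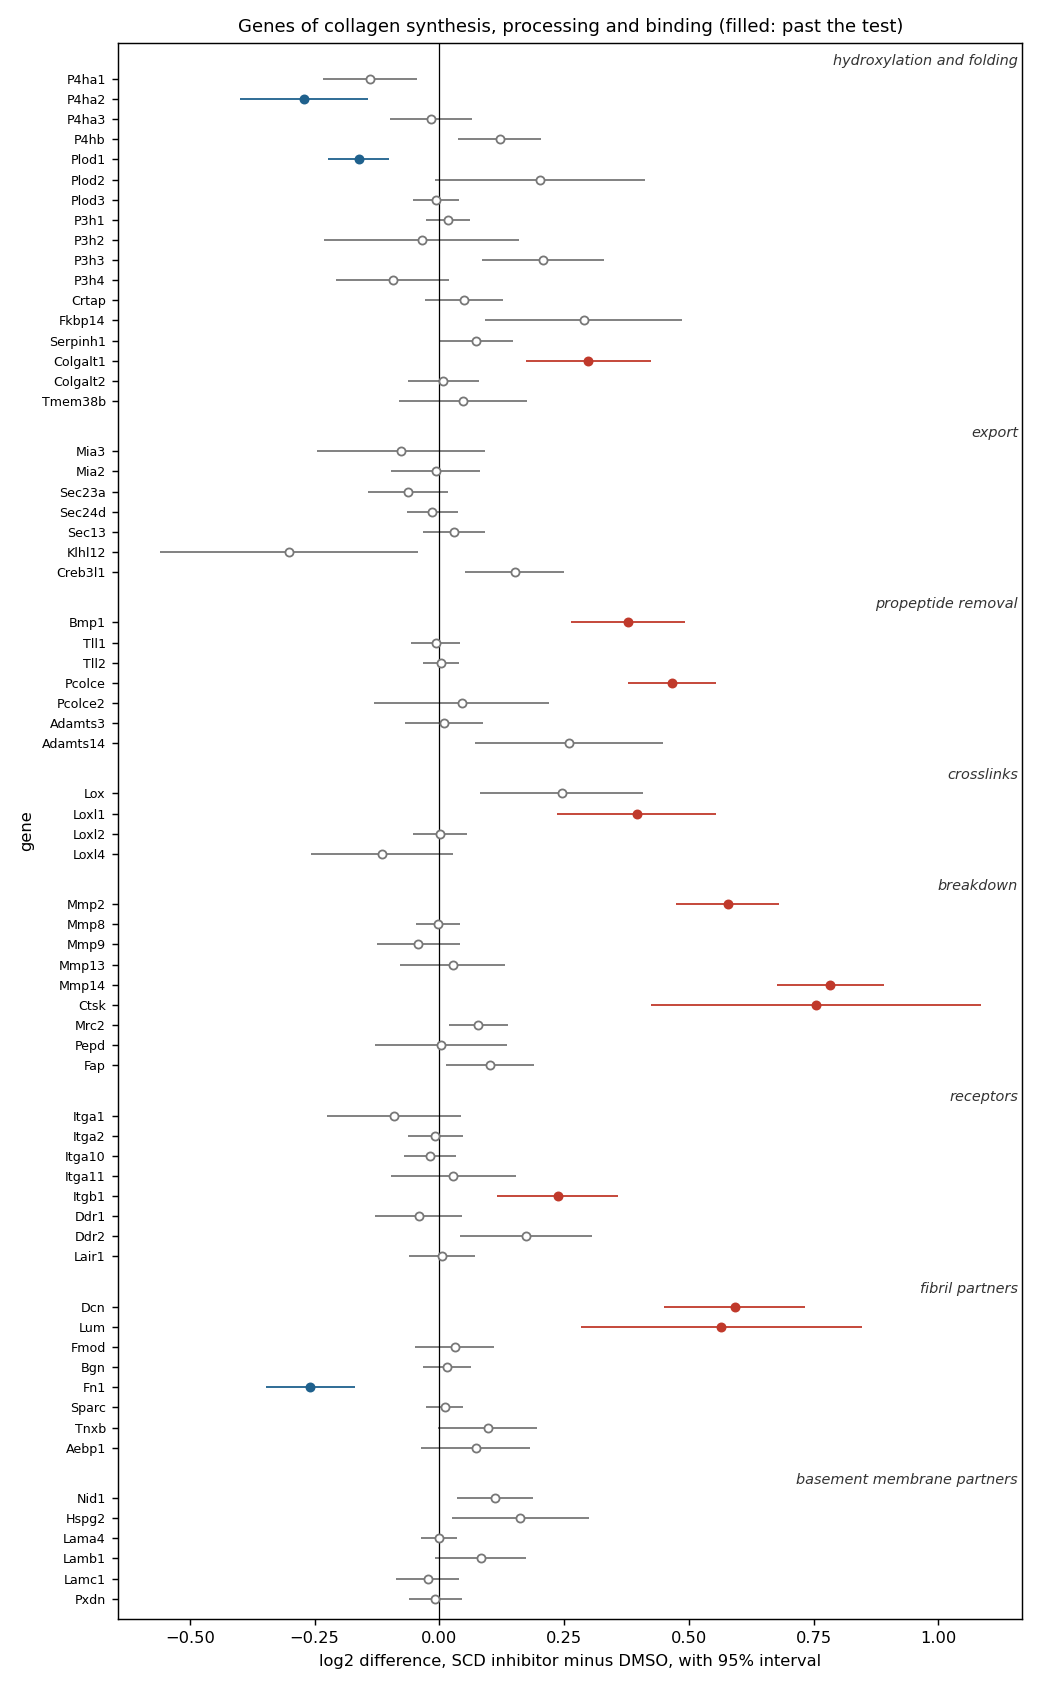
Log2 difference (SCD inhibitor minus DMSO, horizontal axis) of the 66 measured genes of collagen synthesis, export, trimming, crosslinking, breakdown and binding, with 95% intervals from limma; filled points passed an adjusted p of 0.05 (red higher, blue lower). The filled points right of 0 are 10 genes, led by Mmp14 at 0.78, and those left of 0 are Plod1, P4ha2 and Fn1.

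At an adjusted p under 0.05 in limma, 3.62% of all genes rose and 4.37% fell. Of the genes above the median level 6.76% rose. Of 12 listed markers of precursor cells and fibroblasts, the main producers of fibrillar collagen, 10 were measured, 8 of them above that level. Of the 10, 4 rose and none fell, and the other 6 did not pass. Those that rose were Pdgfra, the platelet-derived growth factor receptor that marks fat cell precursors, by 0.89 (SE 0.093), S100a4 by 0.88 (SE 0.0998), Pdgfrb by 0.51 (SE 0.068) and Dlk1, an inhibitor of fat cell formation, by 0.32 (SE 0.070). The mean level of the list ran from 7.87 to 7.96 over the DMSO arrays and from 8.18 to 8.25 over the inhibitor arrays. That mean includes the 4 that rose, and the level without them was not computed. The median log2 difference of these markers was 0.19, and the 6 that did not pass ran from -0.05 to 0.29. For Pdgfrb the adjusted p in limma was 0.0906 when both arrays numbered 1 were dropped, and Dlk1 kept its call only without DMSO 1 among the fits that left out 1 array (highest adjusted p 0.129). No gene has a level of 0 on this scale, and the markers Cd34 and Dpp4 were near its lower end in both groups (3.71 and 3.54 in DMSO). Of 12 fat cell markers 1 fell, Slc2a4 by 0.80 (SE 0.070), and none rose. Their mean level was 11.23 to 11.30 in DMSO and 11.15 to 11.21 with the inhibitor, but without Slc2a4 the groups overlapped, at 11.31 to 11.36 and 11.28 to 11.35, and the median difference of the list was -0.0048. Pparg (log2 0.07) and Adipoq (0.05) did not pass. None of 4 macrophage, 3 endothelial and 3 osteoblast markers passed in limma, nor did any reach an unadjusted p under 0.05. All of these but 1 macrophage marker lay in the dimmer part of the genes, below the median level, where 103 of 9410 genes passed. Of 4 cartilage markers Sox9 rose by 0.32 (SE 0.048), and of 5 smooth muscle and myofibroblast markers Des fell by 0.98 (SE 0.056) and none rose. The part of these markers in the collagen result was not tested.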

How the data were processed

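The values deposited by the authors are log2 expression levels. The submitters' processing notes name RMA (version not given in the sources used here). RMA corrects background, brings arrays to a common distribution and summarises probes. Per the labels, 100 ng of RNA per sample gave biotin-labelled target for 1 Affymetrix array. Values ran from 2.229 to 13.25, and the number of arrays limits the precision. Array rows with exactly 1 symbol in the platform annotation (21218 of 28996) gave 18820 genes, the row with the highest mean standing for each gene. Of those rows 21185 matched RefSeq, and no symbol changed. All 7 arrays were fitted with limma 3.58.1 (lmFit and eBayes, no covariate) in R 4.3.3, with Benjamini-Hochberg adjustment over all 18820 genes. The script was tested on simulated data. Named were all members that passed, all fibrillar and type IV chains, a fixed set of partner genes and the partners and markers that passed; Col6a1, Col6a2, Col6a3, Col6a6, Col12a1, Col14a1, Col18a1, Col20a1, Col23a1, Mrc2, Nid1, Hspg2, Lep, Cd34 and Dpp4 were chosen after their values were seen. The members and lists were chosen with earlier results of these data known. Alternatives were centred arrays, another round of quantile normalization, blocking on replicate number, filters on dim genes, the mean of a gene's rows, all rows tested, trend and robust moderation, array weights, leaving out each array, leaving out both arrays numbered 1, and a wider basement membrane class. The within-array gaps, their alternatives and the fat cell level without Slc2a4 were added after seeing the data.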

Additional observations from a re-analysis of the deposited data

Results flagged for a closer look

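The DMSO group of 4 arrays was searched for an array far from the other 3, with Dixon's test at its 95% critical value. Chance flags about 1 in 20 groups. Of 71 genes examined 19 had such an array, compared with 29% of all genes of the table, many of which have the same deposited value on several arrays. Among the collagens the high arrays were DMSO 1 for Col11a2 (5.675), Col22a1 (5.415) and Col6a5 (5.159), DMSO 2 for Col4a5 (7.068), DMSO 3 for Col13a1 (5.635), Col24a1 (4.692), Col4a6 (4.495) and Col9a2 (6.177), and DMSO 4 for Col8a1 (5.51). The low arrays were DMSO 1 for Col2a1 (6.199) and Col4a3 (4.502), DMSO 2 for Col28a1 (4.485) and Col8a2 (4.35), and DMSO 4 for Col14a1 (4.188), Col26a1 (5.7) and Col4a4 (4.495). None of these 16 members passed the comparison. In Col11a2 the distance to the others was only that between 5.675 and 5.672. Outside the collagens, Pcolce was high on DMSO 4 (10.89, with the others from 10.79 to 10.80), Serpinh1 low on DMSO 2 (8.926) and Itga11 low on DMSO 2 (5.16). All 3 inhibitor values of Pcolce lay above this high DMSO value.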

How the results depend on the processing

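The labels number the replicates in both groups. Deviations of same-numbered arrays from their group means correlated at 0.174, 0.138 and 0.0796, and those numbered 1 and 3, but not 2, correlated best with their own number. Not every correlation exceeded 0.1, and the labels name nothing shared, so the numbers were not taken as pairs. With the replicate block 5 of the 42 collagen genes passed in limma, 5 of 11 fibrillar, 0 of 6 type IV and 0 of the other chains. In that fit 2.32% of all genes rose, in place of 3.62%. Col1a2 (adjusted p = 0.0749), Col4a1 (0.0696), Col4a2 (0.0779) and Col15a1 (0.0889) missed the threshold there, as did Plod1 (0.101) and Sox9 (0.113). The calls of P4ha2, Colgalt1, Ctsk, Itgb1 and Dlk1 also ended with the block. Leaving out 1 array gave 5 to 8 collagen genes, 3 to 5 fibrillar, 1 to 2 type IV and 8 to 13 genes of the synthesis list (13 with all arrays). Without both arrays numbered 1 there were 3 collagen genes, 3 of them fibrillar, 0 of type IV and 0 of other types, and 2 precursor markers. There 2.31% of all genes rose. With the dimmest 50% of genes dropped 2 of 11 other chains passed, Col15a1 higher and Col18a1 lower. In that setting 952 of all 9410 genes kept rose and 1037 fell, larger shares than with all genes. With types XV and XVIII moved to the basement membrane class 0 other chains passed. The median difference over all collagen genes was 0.03202, and 0.04385 after a further quantile normalization, 0.04716 with centred arrays and 0.09082 among members above the median level (also with the dimmest 50% dropped). For type IV it was 0.0284 with centred arrays and 0.1649 among brighter members, and 0.001953 to 0.02222 without 1 array (0.01326 with all), lowest without DMSO 1. For other types it was 0.03666, 0.04028 and 0.0835 in the same order of settings, and 0.01807 to 0.03491 without 1 array. No called collagen gene changed sign in any of 17 alternatives, 2 of 9 passed in all of them, and 9 of the 42 changed sign in at least 1, counting differences under 1e-06 as 0. Of 33 members that did not pass 32 passed in none, the exception being Col18a1. With 7 arrays and a median SE of 0.0393, small differences could not be resolved.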

Other observations

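Array rows outside the comparison also carry collagen symbols. The row of Col7a1, the anchoring fibril collagen of skin, also names Mir711 and showed a log2 difference of -0.02 (SE 0.031). The row of Col9a3 also names Tcfl5 and had a difference of -0.03 (SE 0.042). Among second rows of single genes, that of Col20a1 read 6.65, 6.76, 6.41 and 6.46 in DMSO and 6.39, 5.88 and 6.01 with the inhibitor. Its difference of -0.48 (SE 0.14) has the same sign as that of its brighter row (-0.23), and neither passed in limma (adjusted p = 0.136 over all 28996 rows for the second row). The second rows of Col5a1 (-0.01), Col6a5 (0.05) and Col6a6 (-0.07) did not pass either, and for Col6a6 the sign differed from that of the brighter row (0.20).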
